A study of Mus musculus with 6 samples.

Results

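The 36 genes described here handle iron, zinc and copper in the ileum of mice labelled as lacking Gata6 in the intestinal epithelium. They are every gene on the array whose symbol starts with Slc30a (10 genes, the ZnT zinc exporters) or Slc39a (14 genes, the ZIP zinc importers), the metallothioneins Mt1 and Mt2, 7 iron genes and 3 copper genes, and they were chosen by name from 19938 measured genes. All 12 genes named singly were found. Each gene was read from its brightest probe set, and only Slc39a1 had more than 1; its dimmer probe set read 6.43 to 6.57 on the arrays labelled Gata6 KO and 6.29 to 6.44 on the control arrays.

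Total RNA of whole ileum, the most distal stretch of small intestine, was measured on Affymetrix mouse Gene 1.0 ST arrays, 1 array per mouse. The 3 mice labelled Gata6 KO carried floxed Gata6 alleles and Villin-CreERT2, a Cre recombinase that tamoxifen activates and that the Villin promoter expresses in intestinal epithelium. The 3 control mice carried Villin-CreERT2 alone. Every mouse was given tamoxifen, at 100 mg/ml, for 5 days from an age of 6 to 8 weeks and was killed 28 days later at 10 to 12 weeks, so both groups share the Cre and the drug. Muscle, connective tissue and immune cells of the samples lie outside the reach of the Villin promoter, and in whole tissue a lower number of cells of a type cannot be told apart from less RNA per cell.

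Iron enters the enterocyte as ferrous iron after reduction at the brush border, is stored in ferritin, and leaves across the basolateral membrane through ferroportin together with a copper-containing ferroxidase. Zinc is taken into the cytosol by ZIP proteins and moved out of it, into vesicles or out of the cell, by ZnT proteins, while metallothioneins bind the excess. Copper enters through Slc31a1 and is exported by P-type ATPases. Paneth cells at the crypt base are known for granules rich in zinc.

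Several facts of the whole series bear on these genes. Gata6 itself was not lower: its log2 signal was 6.94, 6.81 and 6.86 on the arrays labelled Gata6 KO, against 6.31, 6.33 and 6.496 on the control arrays (log2 fold change 0.49, SE 0.08, limma adjusted p = 0.0162), a call lost without control replicate 1 or any of the 3 arrays labelled Gata6 KO (0.0501 to 0.0623). The files give no position of its probe set relative to the floxed part, so the label could not be checked from it and every direction refers to arrays by that label. Control replicate 3 read 2.31 for the X-inactivation RNA Xist, against 7.39 to 7.81 on the other arrays, and 5.30 for the Y-linked Eif2s3y, against 0.27 to 0.61. These are male signals in 1 control mouse and female signals in the other 5. Control replicate 1 stood apart from the other controls for some colon genes and for Fgf15, a marker of ileal bile acid handling. Fgf15 read 4.09 there, against 6.975 and 7.05 on the other control arrays and 3.88, 3.78 and 4.37 on the arrays labelled Gata6 KO. The epithelial markers were present in both groups, with a summed linear signal over 12 genes of 12158 to 13468 on the arrays labelled Gata6 KO and 11680 to 12890 on the control arrays; Krt19 rose and Vil1 fell.

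Of the 36 genes, 6 passed the test at a limma adjusted p under 0.05 over all genes, or 16.7%, against 8.24% of all genes tested. The 2 that rose on the arrays labelled Gata6 KO were the iron exporter Slc40a1 and the metal importer Slc39a8, where 4.99% of all genes tested rose. The 4 that fell were the zinc exporters Slc30a2 and Slc30a5, the metal importer Slc39a14 and the ferroxidase Heph, where 3.25% of all genes tested fell. The median log2 fold change of the 36 was -0.03, against -0.00 over all genes tested, so the set as a whole had no common direction: 17 values were above 0 and 19 below. In 20 of the 36 genes the groups did not overlap, 10 in each direction, against 29.3% of all genes tested. Of the 36 genes, 4 had a mean below 3.39, the median over all probe sets, as did 7954 of the 19938 genes. Dim genes were thus scarcer among the 36, so the shares above do not compare genes of like brightness. With dim genes removed, 3 of the remaining 32 rose and 5 fell. Of the genes left after the 7954 dim ones were taken from the 19938, 1328 rose and 688 fell. All 6 calls were lost without variance moderation, with a covariate for smooth muscle (the mean of its marker list), and when control replicates 1 and 3 were left out together, which leaves 1 control array. With the smooth muscle covariate the log2 fold changes were -2.24 for Slc30a2, -1.02 for Slc39a14, -0.58 for Heph, 0.86 for Slc40a1 and 1.03 for Slc39a8, and -0.25 for Slc30a5, against -0.41 as reported. The summed smooth muscle signal did not overlap between the groups, so this covariate partly stands for the group itself. Over all genes only 54 rose and 59 fell with it, so the loss of calls is not particular to these 6 genes.

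**Figure D1:**
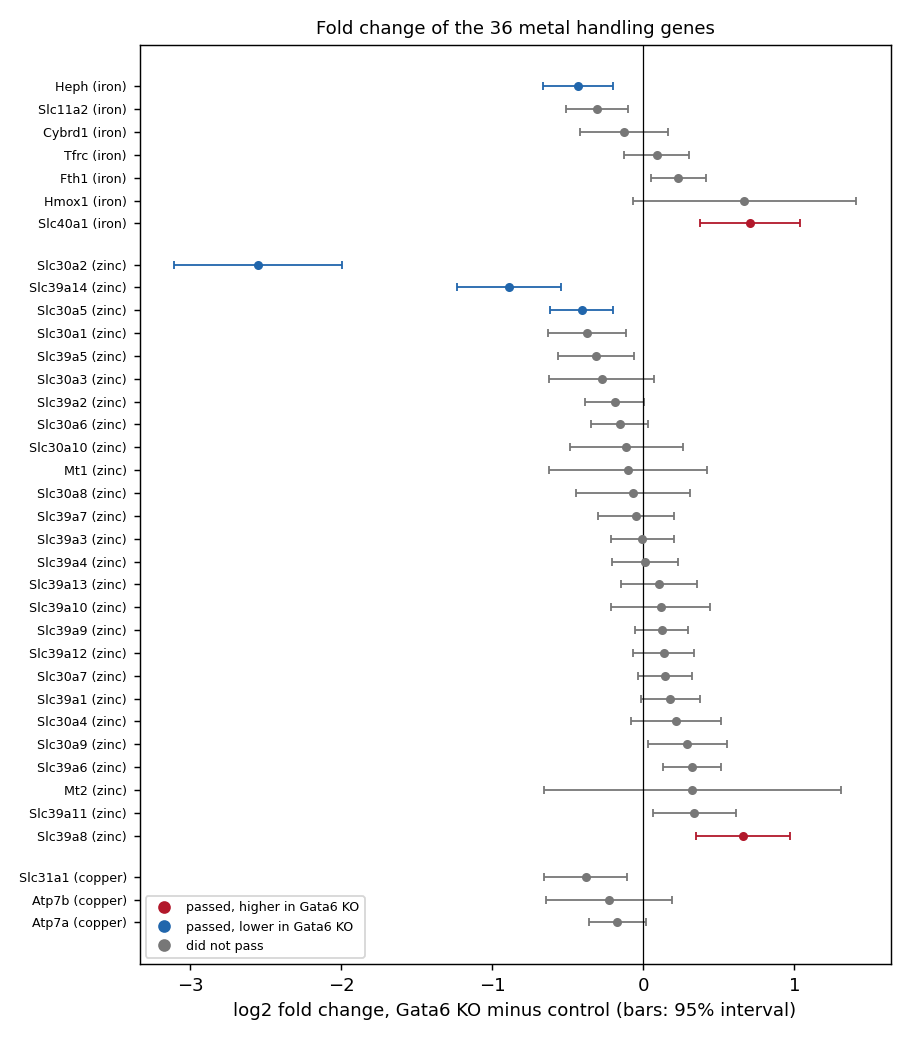
Log2 fold change (arrays labelled Gata6 KO minus control, horizontal axis) of the 36 genes, grouped by metal, with the 95% interval of the limma fit over 3 arrays per group. Slc30a2 at -2.55 lies apart from the others, which run from -0.89 for Slc39a14 to 0.71 for Slc40a1; grey genes did not pass.

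Slc30a2, a ZnT protein that loads zinc into secretory vesicles and is known from Paneth and mammary cells, showed the largest difference of the 36. Its log2 signal was 4.197, 3.460 and 3.739 on the arrays labelled Gata6 KO, against 5.917, 6.563 and 6.574 on the control arrays. Every array labelled Gata6 KO lay well below the lowest control. The difference was -2.55 on the log2 scale (SE 0.24, limma adjusted p = 0.00156), or 5.87-fold lower, with 3 arrays in each group. Leaving out each array in turn gave -2.77 to -2.38, with adjusted p from 0.00397 to 0.0136.

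The list of Paneth cell markers moved with Slc30a2. All 8 measured markers passed and fell, where 3.25% of all genes tested fell. The list was chosen with earlier results of these data known, so this count is not independent evidence. Their median log2 fold change was -2.33, and their summed linear signal was 857 to 2017 on the arrays labelled Gata6 KO against 5539 to 6634 on the control arrays. Mmp7, the protease that matures alpha-defensins, fell by 2.65 (SE 0.15). The alpha-defensin Defa39 fell by 3.79 (SE 0.18) to a mean of 2.49, below the probe set median; the means of the other 7 on those arrays were above it. The part of the Paneth markers in the Slc30a2 result was not tested. In whole tissue the fold change of Slc30a2, at -2.55, fell within the range of these 8 genes, -3.79 to -1.38.

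**Figure D2:**
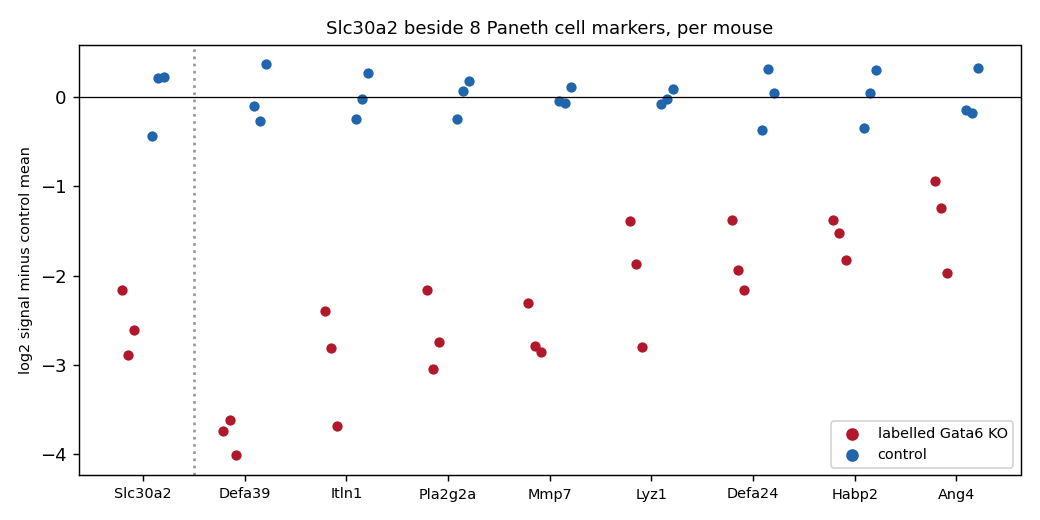
Log2 signal of each array minus the gene's control mean (vertical axis) for Slc30a2, left of the dotted line, and for 8 Paneth cell markers; each point is 1 mouse. In all 9 genes the 3 arrays labelled Gata6 KO lie below the 3 control arrays.

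Slc30a5, which carries zinc into the early secretory pathway where alkaline phosphatases and other enzymes take it up, was the other ZnT gene that fell. It read 6.93, 6.73 and 6.75 on the arrays labelled Gata6 KO, against 7.29, 7.23 and 7.12 on the control arrays. No array of one group reached the other, and the change was -0.41 on the log2 scale (SE 0.09, limma adjusted p = 0.0366), or 1.33-fold lower. The call held without Gata6 KO replicate 1 (0.0462) and was lost without Gata6 KO replicates 2 (0.136) or 3 (0.120) and without control replicates 1 (0.100), 2 (0.0738) or 3 (0.0706). It was also lost with arrays centred on their medians (0.0506) and with the epithelium mean as a covariate (0.0549).

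The partners of Slc30a5 in the secretory pathway did not pass. Slc30a6, with which it forms a heterodimer, had a log2 fold change of -0.16 (95% interval -0.34 to 0.03). Slc30a7, which serves the same compartments as a homodimer, stood at 0.15 (-0.03 to 0.32). These 2 values lie on opposite sides of 0.

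Slc30a1, the exporter of the plasma membrane that the zinc-sensing factor Mtf1 induces, read 6.63, 6.66 and 6.79 on the arrays labelled Gata6 KO, against 7.16, 6.85 and 7.18 on the control arrays. The groups did not overlap, yet the log2 fold change of -0.37 (SE 0.11) did not pass (limma adjusted p = 0.0898). Without control replicate 2, the lowest control, it was -0.48 and passed (0.0329). The remaining 5 ZnT genes did not pass and had values from -0.28 for Slc30a3 to 0.29 for Slc30a9. Slc30a3 fills synaptic vesicles with zinc, Slc30a8 insulin granules, and Slc30a10 exports manganese; Slc30a4 read 0.22. Slc30a8, at a mean of 1.94 on the arrays labelled Gata6 KO and 2.00 on the control arrays, was below the probe set median, and Slc30a10 stood at -0.11 (95% interval -0.48 to 0.26). Of the 10 ZnT genes, 2 fell, 8 did not pass and none rose, where 3.25% of all genes tested fell and 4.99% rose. Their median was -0.13, against -0.00 over all genes tested.

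Among the ZIP importers, Slc39a14 and Slc39a8 are close relatives that carry manganese and iron as well as zinc, and they went opposite ways. Slc39a14 read 5.23, 5.05 and 5.51 on the arrays labelled Gata6 KO, against 6.10, 6.37 and 5.98 on the control arrays. The highest array labelled Gata6 KO was below the lowest control. The log2 fold change was -0.89 (SE 0.15, limma adjusted p = 0.0139), or 1.85-fold lower. The call was lost without Gata6 KO replicate 1 (0.0607) or 2 (0.0590) and held without any other single array (0.0195 to 0.0439).

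Slc39a8 read 6.68, 6.39 and 6.21 on the arrays labelled Gata6 KO, against 5.84, 5.63 and 5.84 on the control arrays. Here the lowest array labelled Gata6 KO was above the highest control. The log2 fold change was 0.66 (SE 0.13, limma adjusted p = 0.0280), or 1.58-fold higher. The call held without Gata6 KO replicate 3 (0.0350) and was lost without Gata6 KO replicates 1 (0.0615) or 2 (0.102) and without control replicates 1 (0.0692), 2 (0.0702) or 3 (0.0849). Adding the smooth muscle mean as a covariate gave 1.03 on the log2 scale and an adjusted p of 0.0537.

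Of the ZIP genes that did not pass, the 2 with a known place on enterocyte membranes come first. Slc39a4, the apical importer that takes up dietary zinc and whose loss causes acrodermatitis enteropathica in humans, read 8.76, 8.71 and 8.81 on the arrays labelled Gata6 KO, against 8.78, 8.58 and 8.87 on the control arrays. The control arrays enclosed the others, and the 95% interval of the log2 fold change was -0.21 to 0.23 around 0.01. Slc39a5, a basolateral importer, read 7.83, 7.81 and 7.86 on the arrays labelled Gata6 KO, against 8.08, 7.98 and 8.36 on the control arrays. Its groups did not overlap, but the log2 fold change of -0.31 (SE 0.11) did not pass (limma adjusted p = 0.132).

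Slc39a6 was the ZIP gene nearest to the threshold without passing it, at 4.12, 4.32 and 4.26 on the arrays labelled Gata6 KO, against 3.90, 3.94 and 3.89 on the control arrays. The log2 fold change of Slc39a6 was 0.32 (SE 0.08, limma adjusted p = 0.0558), and it passed with arrays centred on their medians (0.0333), with dim genes removed (0.0344) and with array weights (0.0403). The Golgi-associated Slc39a11 stood at 0.34 (SE 0.12, limma adjusted p = 0.132). The others, Slc39a1, Slc39a2, Slc39a3, Slc39a7, which releases zinc from the endoplasmic reticulum, Slc39a9, Slc39a10, Slc39a12 and Slc39a13, lay between -0.19 for Slc39a2 and 0.18 for Slc39a1. Slc39a2 and Slc39a12 were below the probe set median. Of the 14 ZIP genes, 1 rose, 1 fell and 12 did not pass, where 4.99% of all genes tested rose and 3.25% fell. Their median was 0.11, against -0.00 over all genes tested.

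**Figure D3:**
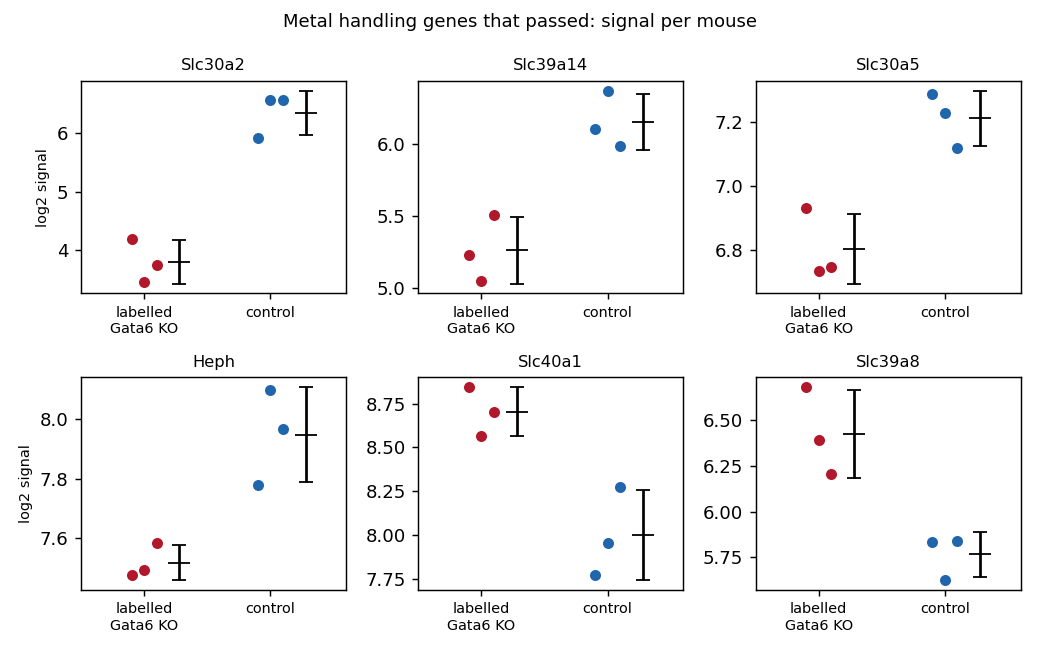
Log2 signal per mouse of the 6 genes that passed, each panel with its own vertical scale, arrays labelled Gata6 KO left of control. Points are mice, and the bar is the mean with the SD of 3 arrays; the groups do not overlap in any of the 6 panels.

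Metallothioneins bind zinc and copper and are induced by Mtf1 when cytosolic zinc rises, so they are a common readout of zinc status. Mt1 read 7.63, 7.84 and 8.13 on the arrays labelled Gata6 KO, against 8.39, 7.54 and 7.97 on the control arrays. The controls enclosed the arrays labelled Gata6 KO, and the log2 fold change was -0.10 (SE 0.22, limma adjusted p = 0.824). Mt2, its neighbour on chromosome 8, read 7.39, 7.496 and 7.95 on the arrays labelled Gata6 KO, against 8.18, 6.34 and 7.33 on the control arrays. Its control SD of 0.92 was the largest SD of any of the 36 genes in either group, and the log2 fold change of 0.32 (95% interval -0.66 to 1.31) did not pass (limma adjusted p = 0.681). Control replicate 1 was the highest and control replicate 2 the lowest of the 6 arrays for both genes. Without control replicate 2 the log2 fold change of Mt2 was -0.15.

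The metal response element, the short core that Mtf1 binds, is shown for the genes whose signal is read as zinc status or secretory zinc supply. Windows of 300 bases, 250 before to 50 after a listed gene start, came from RefSeq (GRCm38.p6) and were found for 28 of the 36 genes, in 35 windows. Capitals mark every match to TGCACNC or TGCGCNC on either strand, and each window is printed on the gene's strand.
Mt1 (chr8:94178839-94179138, plus strand): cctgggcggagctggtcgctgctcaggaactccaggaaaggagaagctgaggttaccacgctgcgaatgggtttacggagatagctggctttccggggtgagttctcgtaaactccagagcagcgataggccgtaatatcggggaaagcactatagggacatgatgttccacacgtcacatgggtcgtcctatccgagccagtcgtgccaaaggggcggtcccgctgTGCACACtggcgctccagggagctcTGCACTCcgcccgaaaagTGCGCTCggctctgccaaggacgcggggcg
Mt2 (chr8:94172368-94172667, plus strand): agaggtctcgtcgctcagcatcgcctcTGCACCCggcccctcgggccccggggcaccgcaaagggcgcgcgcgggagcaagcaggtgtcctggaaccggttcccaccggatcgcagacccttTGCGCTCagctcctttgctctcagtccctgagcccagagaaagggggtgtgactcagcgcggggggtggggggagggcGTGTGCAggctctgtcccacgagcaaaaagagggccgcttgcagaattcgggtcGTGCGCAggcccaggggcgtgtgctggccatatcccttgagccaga
Slc30a1 (chr1:191906531-191906830, plus strand): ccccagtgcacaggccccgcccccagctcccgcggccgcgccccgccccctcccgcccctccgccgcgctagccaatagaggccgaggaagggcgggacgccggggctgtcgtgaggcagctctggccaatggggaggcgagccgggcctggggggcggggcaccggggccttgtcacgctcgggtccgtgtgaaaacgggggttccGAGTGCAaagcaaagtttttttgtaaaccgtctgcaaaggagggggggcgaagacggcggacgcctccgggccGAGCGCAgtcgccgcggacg
Slc30a5 (chr13:100833378-100833677, minus strand): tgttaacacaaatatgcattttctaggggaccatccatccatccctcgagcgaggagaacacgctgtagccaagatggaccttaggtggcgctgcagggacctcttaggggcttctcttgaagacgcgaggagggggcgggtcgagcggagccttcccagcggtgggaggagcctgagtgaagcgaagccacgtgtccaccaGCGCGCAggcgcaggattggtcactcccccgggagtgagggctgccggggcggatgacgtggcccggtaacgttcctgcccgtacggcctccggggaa

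The Mt1 window held 3 matches, all on the gene's strand, and the Mt2 window 4, of which 2 were on the opposite strand. The Slc30a1 window held 2 and the Slc30a5 window 1, all on the opposite strand. Of the 35 windows of these genes, 17 (48.6%) held at least 1 match, against 25.7% of all 32851 windows in the table. The listed start was the first base of the gene for Mt2 and lay 206 bases into the gene for Mt1, 84 for Slc30a1 and 53 for Slc30a5. That of Slc30a2 lay 420 bases into the gene. Its window is not shown and held matches that began at -214 and -200 from the listed start, both on the opposite strand. The 35 windows counted also include starts far inside a gene, up to 84385 bases in for Slc39a11. In the Slc30a10 and Tfrc windows matches on opposite strands overlapped. The GATA core, searched on both strands as GATA with A or T before it and A or G after it, was in 11 of the 35 windows (31.4%), against 29.8% of all windows. A match is a string of letters in a window and was not tested as a site.

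In the iron branch, the exporter Slc40a1, ferroportin, rose. It read 8.85, 8.57 and 8.71 on the arrays labelled Gata6 KO, against 7.77, 7.95 and 8.27 on the control arrays. All 3 arrays labelled Gata6 KO were above every control. The log2 fold change was 0.71 (SE 0.14, limma adjusted p = 0.0274), or 1.63-fold higher. The call held without control replicate 3 (0.0236) and was lost without Gata6 KO replicates 1 (0.0955), 2 (0.0713) or 3 (0.0891) and without control replicates 1 (0.0701) or 2 (0.0703).

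Heph, hephaestin, the ferroxidase that works beside ferroportin, went the other way. It read 7.47, 7.49 and 7.58 on the arrays labelled Gata6 KO, against 7.78, 8.10 and 7.97 on the control arrays. All 3 arrays labelled Gata6 KO were below every control. The log2 fold change was -0.43 (SE 0.10, limma adjusted p = 0.0416), or 1.35-fold lower. The call held without control replicate 1 (0.0297) and was lost without Gata6 KO replicates 1 (0.120), 2 (0.145) or 3 (0.0946), without control replicates 2 (0.0746) or 3 (0.129), and with arrays centred on their medians (0.0616). Heph lies on the X chromosome, and without control replicate 3, the mouse with male signals, its log2 fold change was -0.42.

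Ferroportin is also made by macrophages that recycle iron, so their markers are given beside it. Of 12 macrophage markers 2 rose, where 4.99% of all genes tested rose, and 10 did not pass. These 2 were the endotoxin receptor component Cd14, up by 1.23 (SE 0.23), and the complement receptor Vsig4, up by 1.07 (SE 0.25). The list's median log2 fold change was 0.35. The summed linear signal of the list was 1019 to 1947 on the arrays labelled Gata6 KO and 970 to 1401 on the control arrays, and the groups overlapped. Vsig4 alone of the 12 was below the probe set median. Smooth muscle markers also moved with the groups: all 12 had fold changes above 0, as did 9804 of the 19938 genes tested. Tagln rose by 0.46 (SE 0.10), where 4.99% of all genes tested rose, and the other 11 did not pass. Their summed linear signal was 4585 to 5793 on the arrays labelled Gata6 KO against 3932 to 4489 on the control arrays. The part of either list in the results on Slc40a1 and Slc39a8 was not tested.

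Iron uptake genes did not pass. Slc11a2, the apical ferrous iron importer, read 5.94, 5.90 and 6.08 on the arrays labelled Gata6 KO, against 6.36, 6.19 and 6.30 on the control arrays. The groups did not overlap, and the log2 fold change was -0.31 (SE 0.09, limma adjusted p = 0.0782). It passed with quantile normalization (0.0486) and with dim genes removed (0.0498). Cybrd1, the brush border ferric reductase, had a log2 fold change of -0.13 (95% interval -0.42 to 0.16), with overlapping groups. Tfrc, the transferrin receptor of dividing cells, read 8.19, 8.17 and 8.34 on the arrays labelled Gata6 KO, against 8.27, 8.04 and 8.13 on the control arrays, a log2 fold change of 0.09 (95% interval -0.13 to 0.31).

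Fth1, the ferritin heavy chain, read 10.82, 10.94 and 10.82 on the arrays labelled Gata6 KO, against 10.70, 10.59 and 10.60 on the control arrays. The groups did not overlap, but the log2 fold change of 0.23 (SE 0.08) did not pass (limma adjusted p = 0.124). Hmox1, the inducible enzyme that frees iron from heme, read 5.54, 5.02 and 4.35 on the arrays labelled Gata6 KO, against 4.72, 4.27 and 3.91 on the control arrays. Its groups overlapped and its SDs, 0.59 and 0.40, were the widest of the iron genes. The log2 fold change of 0.67 (95% interval -0.07 to 1.41) did not pass (limma adjusted p = 0.241), and passed with the epithelium mean as a covariate (0.0191). Without Gata6 KO replicate 1, the highest array, it was 0.39 (0.504), and with the smooth muscle covariate 1.42 (0.256).

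**Figure D4:**
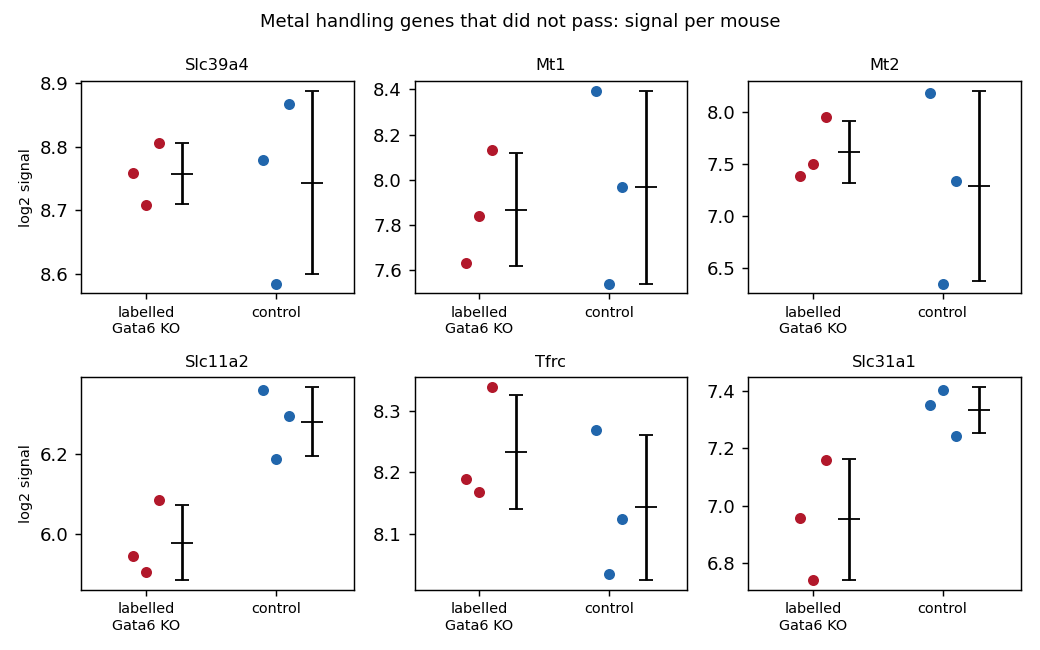
Log2 signal per mouse of 6 genes that did not pass, each panel with its own vertical scale, arrays labelled Gata6 KO left of control. Points are mice, and the bar is the mean with the SD of 3 arrays; the groups of Slc11a2 and Slc31a1 are apart, and those of Slc39a4, Mt1, Mt2 and Tfrc overlap.

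None of the 3 copper genes passed, and all had fold changes below 0; limma gave 1 of them an unadjusted p under 0.05, as it did 24.7% of all genes tested. Slc31a1, the high-affinity copper importer, read 6.96, 6.74 and 7.16 on the arrays labelled Gata6 KO, against 7.35, 7.40 and 7.24 on the control arrays. The groups did not overlap, and the log2 fold change was -0.38 (SE 0.12, limma adjusted p = 0.0994). Atp7a, the ATPase that exports copper across the basolateral membrane and lies on the X chromosome, read 6.44, 6.30 and 6.39 on the arrays labelled Gata6 KO, against 6.63, 6.53 and 6.48 on the control arrays, a log2 fold change of -0.17 (95% interval -0.36 to 0.02). Atp7b, its relative of the liver, was below the probe set median at a mean of 2.63 on the arrays labelled Gata6 KO and 2.86 on the control arrays.

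Other genes of metal biology were read from lists of regulators and partners. Of 13 genes that regulate iron, 1 rose and 12 did not pass, so 7.69% passed, against 8.24% of all genes tested. The one that rose was Epas1, the hypoxia-inducible factor subunit known to drive Slc40a1, Slc11a2 and Cybrd1 in the iron-deficient intestine. Of these 3 genes Slc40a1 rose by 0.71, while Slc11a2 at -0.31 and Cybrd1 at -0.13 did not pass. The part of Epas1 in these values was not tested. Epas1 read 6.21, 6.26 and 6.37 on the arrays labelled Gata6 KO, against 5.72, 5.65 and 5.74 on the control arrays. Its log2 fold change was 0.58 (SE 0.08, limma adjusted p = 0.00674), and the call held whichever single array was left out (0.0219 to 0.0362). Fitted beside the smooth muscle mean, its log2 fold change was 0.53 (SE 0.14) and did not pass (0.206). The hormone hepcidin, Hamp, was below the probe set median on every array.

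Of 18 genes of iron storage and transport 1 rose, 1 fell and 16 did not pass, so 11.1% passed, against 8.24% of all genes tested. Their median log2 fold change was 0.09. The ferrireductase Steap3 rose by 0.59 (SE 0.10, limma adjusted p = 0.0155), a call lost without Gata6 KO replicates 2 (0.0703) or 3 (0.0626) or control replicate 3 (0.0651). Lactoferrin, Ltf, fell by 0.60 (SE 0.12, limma adjusted p = 0.0245) at signals below the probe set median, a call that held without control replicate 2 (0.0132) and was lost without any other single array (0.0609 to 0.104).

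Of 18 heme genes 1 rose, 1 fell and 16 did not pass, so 11.1% passed, against 8.24% of all genes tested. Their median log2 fold change was 0.05. The heme exporter Flvcr1 read 4.83, 4.29 and 4.91 on the arrays labelled Gata6 KO, against 5.27, 5.76 and 5.78 on the control arrays, and fell by 0.93 (SE 0.20, limma adjusted p = 0.0369). Its call held without control replicate 1 (0.0351) and was lost without any other single array (0.0674 to 0.133). Ppox, an enzyme of heme synthesis, rose by 0.52 (SE 0.10, limma adjusted p = 0.0221), a call lost without Gata6 KO replicates 1 (0.0708) or 2 (0.0773) or control replicates 2 (0.0537) or 3 (0.0866). None of 7 other zinc genes, with the factor Mtf1 among them, and none of 10 other copper genes passed; limma gave 3 of the zinc genes and 1 of the copper genes an unadjusted p under 0.05, against 24.7% of all genes tested. Mtf1 stood at -0.27 on the log2 scale (SE 0.08, limma adjusted p = 0.0990).

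**Figure D5:**
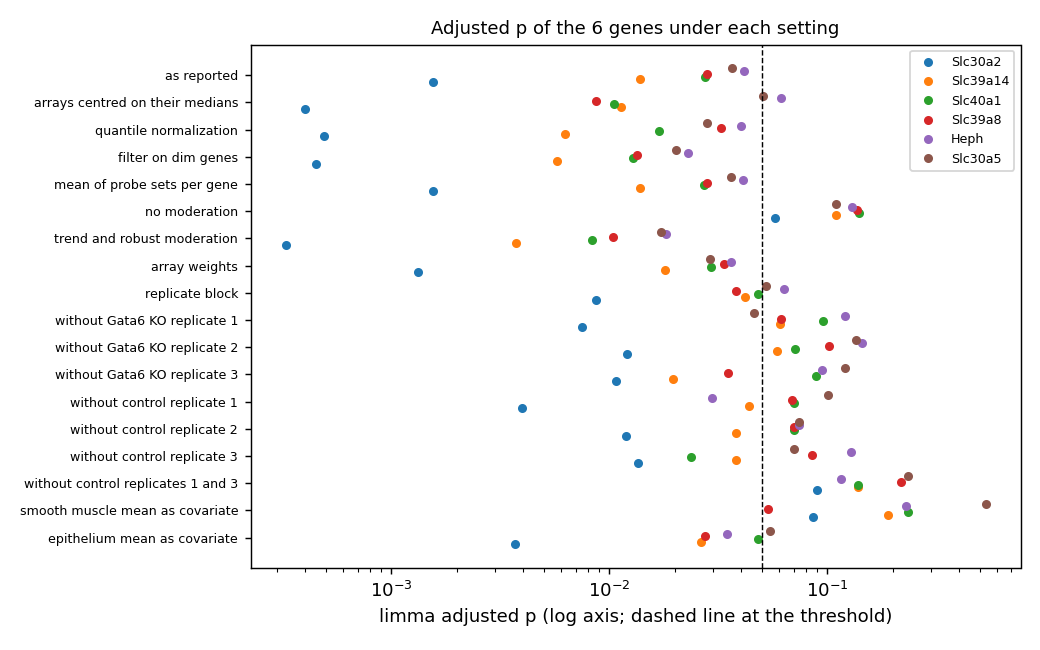
Limma adjusted p (horizontal log axis, dashed line at 0.05) of the 6 genes that passed, under the reported setting at the top and 17 alternatives. Slc30a2 stays left of the line in 14 of the 17 alternatives and Slc39a14 in 12, and the other 4 genes in 6 to 9.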

How the data were processed

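The authors deposited 1 table of log2 values per probe set. The submitters' processing notes name Affymetrix Expression Console as the tool. Its version, the background correction and the normalization were not given in the sources used here. Base 2 was taken from the values, which ran from -0.47 to 12.73. Probe sets with exactly 1 symbol in the platform annotation (21789 of 35557) were kept and the brightest per gene taken, which gave 19938 genes. Groups were taken from the sample titles, with 3 mice each; the number of arrays limits the precision.

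All genes were fitted with limma 3.58.1 in R 4.3.3 (lmFit, eBayes), as a two-sided test of the difference Gata6 KO minus control, with Benjamini-Hochberg adjustment over all 19938 genes and a threshold of 0.05. No filter on dim genes was used. SE is the moderated one. On simulated arrays, 3 per group, the fit called 48.7% of genes with a true log2 difference of 0.5 and 97.6% with one of 1. False calls made up 5.75% of the calls. The simulation changed 200 genes and drew independent noise at each gene's moderated variance. It held no differences between arrays, such as the male signals in control replicate 3. Its rates therefore need not hold for the real arrays.

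Every one of the 36 genes is named; other metal genes are named where they passed, up to 3 per list. Hamp, Mtf1, Fgf15 and the Paneth, macrophage and epithelial genes beyond the smallest p were chosen after their values were seen. The genes and lists were chosen with earlier results of these data known, and no set test was run. Listed symbols absent from the annotation were matched through RefSeq synonyms (GRCm38.p6). Alternatives covered array scaling, dim genes, probe set choice, moderation, array weights, the replicate block, left-out arrays, and muscle or epithelium covariates. Figures were drawn with matplotlib 3.10.9.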

Additional observations from a re-analysis of the deposited data

How the results depend on the processing

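The 6 calls kept their direction under all 17 alternatives. The count of genes that rose, 2 as reported, was 0 without moderation, with the smooth muscle covariate and without control replicates 1 and 3; it was 0 to 1 when single arrays were left out. The count that fell, 4 as reported, was 0 under those same 3 alternatives, 2 with arrays centred on their medians, 2 with the replicate block, and 1 to 3 when single arrays were left out. Over all genes the 995 that rose became 1562 with centred arrays, 168 without moderation, 54 with the smooth muscle covariate, 25 without control replicates 1 and 3, and 320 to 806 without single arrays. The 648 that fell became 565 with centred arrays, 106, 59 and 11 under the same last 3 alternatives, and 277 to 597 without single arrays. Centring moved the median of all genes by less than 0.1. The cause of these shifts was not tested. After each gene's group mean was subtracted, correlations of same-numbered arrays over all genes were 0.04, -0.04 and 0.15. Those of differently numbered arrays ran from -0.12 to 0.08. Such correlations cannot show whether single genes share a pattern by replicate number. With the replicate block the limma adjusted p of Heph was 0.0636 and that of Slc30a5 0.0522, while Hmox1 passed (0.0268).

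Of 506 values for the 30 genes that did not pass, 8 passed under an alternative and 28, in 9 genes, changed sign without passing. With the smooth muscle covariate these were Slc30a4 at -0.075, Slc39a10 at -0.017, Slc30a10 at 0.12 and Slc39a3 at 0.14. Without control replicates 1 and 3 they were Slc39a10 at -0.041, Slc30a10 at 0.22, Mt1 at 0.33, Slc39a7 at 0.038 and Slc39a3 at 0.13. Without single arrays the values ran from -0.016 to 0.19 for Slc39a10, -0.15 to 0.77 for Mt2, -0.31 to 0.11 for Mt1, -0.11 to 0.041 for Slc39a7, -0.26 to 0.046 for Slc30a8, -0.066 to 0.076 for Slc39a4 and -0.074 to 0.047 for Slc39a3. Centred arrays gave Slc39a7 0.010 and Slc39a3 0.052, quantile normalization Slc30a8 0.012, array weights Slc39a4 -0.0079, and the epithelium covariate Slc39a3 0.0032. Signal near background limits what can be read of the 4 genes below the probe set median.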

Other observations

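Enteroendocrine and segment markers, which the comparison of metal genes did not use, also differed. Over all genes tested 4.99% rose and 3.25% fell. Of 8 enteroendocrine markers 5 fell, and the list's median log2 fold change was -0.46. The hormone gene Pyy read 6.21, 6.69 and 6.38 on the arrays labelled Gata6 KO, against 8.08, 7.76 and 8.11 on the control arrays. Of 5 markers of ileal bile acid handling 3 fell, with summed linear signals of 1300 to 1814 on the arrays labelled Gata6 KO and 3177 to 3513 on the control arrays. Of 8 colon markers 2 rose, and the summed signal was 6175 to 6692 on the arrays labelled Gata6 KO, against 2696 in control replicate 1, 360 in control replicate 2 and 667 in control replicate 3. Of 8 lymphoid markers none passed in the limma fit and 1 had an unadjusted p under 0.05, against 24.7% of all genes tested. Their summed signal was 272 to 334 on the arrays labelled Gata6 KO and 263 to 293 on the control arrays. Of 9 proliferation markers Birc5 fell and 8 did not pass. All 9 had fold changes below 0, as did 10134 of the 19938 genes tested. Their median log2 fold change was -0.24. Of 3 measured erythroid markers none passed in the limma fit, 2 had an unadjusted p under 0.05, against the same 24.7% of all genes tested, and the globin genes of that list were not measured by probe sets with 1 symbol.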
